A study of Mus musculus with 12 samples.

Results

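The 7 genes described here, Nkx2-1, Lhx6, Lhx8, Sst, Npy, Maf and Erbb4, mark the medial ganglionic eminence of the mouse forebrain and the inhibitory interneurons that it produces. They were taken by gene symbol from a count table of 40690 gene identifiers, each symbol matching 1 gene, and all 7 passed the filter on low counts that left 16002 genes. RNA was measured in the brains of 12 C57BL/6J embryos at embryonic day 14.5, with oligo-dT libraries that capture polyadenylated RNA. In the LC1 experiment, 3 LC1 knockout embryos (numbers 7, 22 and 71) were compared with 3 wild types (6, 26 and 73), all female. The RKI experiment set 3 homozygotes (A1, A10 and A18), which carry a human sequence variant knocked into the mouse genome on both alleles, against 3 wild types (A2, A9 and A16), with 1 female and 2 males in each group. LC1 is a conserved non-coding element near Pou3f2, and the knock-in places the variant in that element. Mutants and wild types were matched for sex and litter, per the labels, but the litters are not named, nor are the founders of each line. Genotypes were read from tail tissue and cannot be checked from the counts, because the altered element lies outside genes.

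The medial ganglionic eminence is a ventral zone of the embryonic telencephalon. Sonic hedgehog signalling maintains Nkx2-1 there, and NKX2-1 turns on Lhx6 and Lhx8 in cells that leave the cycle. Lhx6-expressing cells migrate into the cortex and striatum, where many become interneurons that contain somatostatin or parvalbumin, whereas Lhx8 is needed for cholinergic neurons of the basal forebrain. MAF acts after LHX6 in cortical interneurons, and the neuregulin receptor ERBB4 is carried by migrating and mature interneurons. Several of these genes are also used elsewhere: Nkx2-1 in the hypothalamus, Maf in lens and macrophages, and Sst and Npy in other neurons. In a bulk sample of brain, fewer cells of a type and less RNA per cell cannot be told apart.

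Library totals ranged from 18192984 to 26566769 counts. All 10 markers of the telencephalon were detected, and their summed level was 1398 to 1701 CPM (read counts scaled to library size with TMM factors). Hox genes of the hindbrain were nearly missing from tissue labelled as whole brain: Hoxb2, Hoxb3 and Hoxb5 had 0 counts in all 12 libraries, and Hoxa2, Hoxa3 and Hoxb4 at most 1 count in any. Markers of thyroid and lung, other sites of Nkx2-1, summed to 4.92 to 6.31 CPM over 11 genes, with Foxe1, Sftpa1 and Scgb1a1 at 0 throughout. Lens and eye genes, from another site of Maf, summed to 58.1 to 85.0 CPM over 14 genes, most of it Prox1 (mean 63.3 CPM), which is also made in brain. Lim2 was at 0 in all 12 libraries, while the crystallin gene Cryab reached 101 counts and Cryba4, Crybb3, Mip, Bfsp1 and Pmel were read in every library at up to 12 to 44 counts. Embryo A16 stood apart on the first principal component of all genes, at 26.1 against -12.0 to 13.4 for the other 11 libraries, and had the lowest summed midbrain and hindbrain markers, 68.2 CPM against 83.1 to 113 in the others. Several results, though not all, are given with and without A16 below.

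On a scale per gene length (RPKM, which allows levels of different genes to be compared), Sst was the most abundant of the 7, with a median of 87.6 over 12 embryos and a range of 77.1 to 97.2. Its mean ranked 397th among the 16002 genes. Npy followed at 30.8 RPKM (27.5 to 40.6), so both neuropeptide genes lay above all the transcription factors, in 12 of 12 embryos at each step. Nkx2-1 (19.0 RPKM, 15.6 to 23.8) and Lhx6 (16.7, 14.4 to 20.0) overlapped, with Nkx2-1 the higher in 9 of 12 embryos. Lhx8 (8.37, 6.91 to 9.12), Maf (7.69, 6.57 to 8.51) and Erbb4 (7.04, 5.82 to 7.78) formed the lowest tier. Their ranges also overlapped: Lhx8 was above Maf in 9 embryos and Maf above Erbb4 in 11. The length implied by RPKM was 4811 bases for Lhx6 and 8251.5 for Maf, above their longest annotated transcripts (3481 and 6360). For Sst it was 600, below its transcript (721). The order of genes with overlapping ranges depends on this length.

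Nkx2-1 (ENSMUSG00000001496, chr12:56531958-56536908, minus strand, GRCm38) encodes the homeodomain factor that specifies the medial eminence. Its level was 61.1, 54.0 and 52.2 CPM in LC1 wild types 6, 26 and 73, and 68.7, 65.7 and 44.2 CPM in knockouts 7, 22 and 71. The knockouts thus held both the highest and the lowest value of all 12 embryos. In RKI wild types A2, A9 and A16 it was 54.3, 47.8 and 53.0 CPM, and in homozygotes A1, A10 and A18 it was 49.6, 52.9 and 55.4 CPM. The groups overlapped in both experiments. The log2 fold change was 0.10 (SE 0.13) in LC1 and 0.03 (SE 0.129) in RKI, with edgeR adjusted p of 1 in both.

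Lhx6 (ENSMUSG00000026890, chr2:36081953-36105408, minus strand) encodes a LIM-homeodomain factor needed for the migration and fate of medial eminence interneurons. Its level was 76.9, 82.2 and 74.8 CPM in LC1 wild types 6, 26 and 73 and 78.8, 93.0 and 69.0 CPM in knockouts 7, 22 and 71. In RKI it was 75.5, 97.0 and 76.3 CPM in wild types A2, A9 and A16 and 85.0, 83.0 and 97.7 CPM in homozygotes A1, A10 and A18. One embryo in each of 3 groups, 22, A9 and A18, stood at or above 93.0 CPM, and the groups overlapped. The log2 fold change was 0.05 (SE 0.11) in LC1 and 0.10 (SE 0.109) in RKI.

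Lhx8 (ENSMUSG00000096225, chr3:154306294-154330659, minus strand) encodes a related LIM-homeodomain factor of the cholinergic lineage. In LC1 it was 19.3, 20.2 and 17.9 CPM in wild types 6, 26 and 73 and 22.3, 20.4 and 19.6 CPM in knockouts 7, 22 and 71, so that the knockout exceeded the wild type in 8 of 9 possible pairs of embryos. In RKI, wild-type embryos A2, A9 and A16 had 16.8, 22.4 and 20.99 CPM, and the homozygotes A1, A10 and A18 had 20.8, 21.1 and 19.1 CPM. The LC1 log2 fold change of 0.12 (SE 0.0957) had an unadjusted edgeR p of 0.227, and the exact permutation p was 0.2. The RKI value was 0.02 (SE 0.0934), with wild types A2 and A9 at the lowest and highest of all 12 values.

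Sst (ENSMUSG00000004366, chr16:23889573-23890958, minus strand) encodes somatostatin, an inhibitory neuropeptide, and Npy (ENSMUSG00000029819, chr6:49822710-49829507, plus strand) encodes neuropeptide Y, which a subset of the same interneurons contains. In LC1, Sst was 52.3, 54.1 and 46.2 CPM in wild types 6, 26 and 73 and 46.9, 53.3 and 47.0 CPM in knockouts 7, 22 and 71. It was 53.0, 58.8 and 49.1 CPM in RKI wild types and 54.0, 51.6 and 54.2 CPM in homozygotes. In the same order of embryos, Npy stood at 19.5, 18.3 and 15.6 CPM in the LC1 wild types and at 15.9, 20.9 and 15.6 CPM in the knockouts. The RKI wild types had 16.1, 23.2 and 15.8 CPM of Npy and the homozygotes 16.6, 18.3 and 20.9 CPM. Embryo A9 was the highest and embryo 73 the lowest for both peptides, and both are wild types. The log2 fold changes were -0.05 (SE 0.0793) and -0.01 (SE 0.0777) for Sst and -0.02 (SE 0.144) and 0.04 (SE 0.14) for Npy, in LC1 and RKI.

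Maf (ENSMUSG00000055435, chr8:115682942-115707794, minus strand) encodes a bZIP factor of maturing interneurons. In LC1 it was 71.4, 61.7 and 59.9 CPM in wild types 6, 26 and 73 and 61.6, 64.4 and 54.1 CPM in knockouts 7, 22 and 71, with wild type 6 the highest and knockout 71 the lowest of all embryos. In RKI, wild-type embryos A2, A9 and A16 had 62.0, 67.8 and 61.5 CPM and the homozygotes A1, A10 and A18 had 67.1, 66.8 and 69.5 CPM, where A9 alone lay among the homozygotes. The log2 fold changes were -0.10 (SE 0.0773) in LC1 and 0.09 (SE 0.0761) in RKI. The difference between these effects, 0.19 (SE 0.108), was the widest of the 7 genes and had an edgeR p of 0.0992 unadjusted and 1 adjusted over all genes. All 12 genes of a macrophage list, another site of Maf, were lower in the LC1 knockouts, with a median log2 fold change of -0.20 and none past the threshold. The macrophage list summed to 161 to 206 CPM in LC1 wild types, highest in embryo 6, and to 152 to 161 CPM in knockouts. The 7 measured lens and eye genes had 2 higher in the knockouts, and their list summed to 66.1 to 73.7 CPM in LC1 wild types and 62.3 to 77.7 CPM in knockouts. The part of either in the Maf values was not tested.

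Erbb4 (ENSMUSG00000062209, chr1:68032186-69108059, minus strand) encodes a receptor tyrosine kinase for neuregulins. In LC1 it was 78.0, 88.8 and 83.7 CPM in wild types 6, 26 and 73 and 79.9, 95.9 and 84.0 CPM in knockouts 7, 22 and 71. It was 88.4, 92.5 and 71.1 CPM in RKI wild types and 86.3, 87.3 and 94.4 CPM in homozygotes, with A16 the lowest of all 12 and the groups overlapping. The log2 fold change was 0.06 (SE 0.0899) in LC1. The RKI value, 0.09 (SE 0.089), became -0.02 without A16, as did that of Npy.

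**Figure D1:**
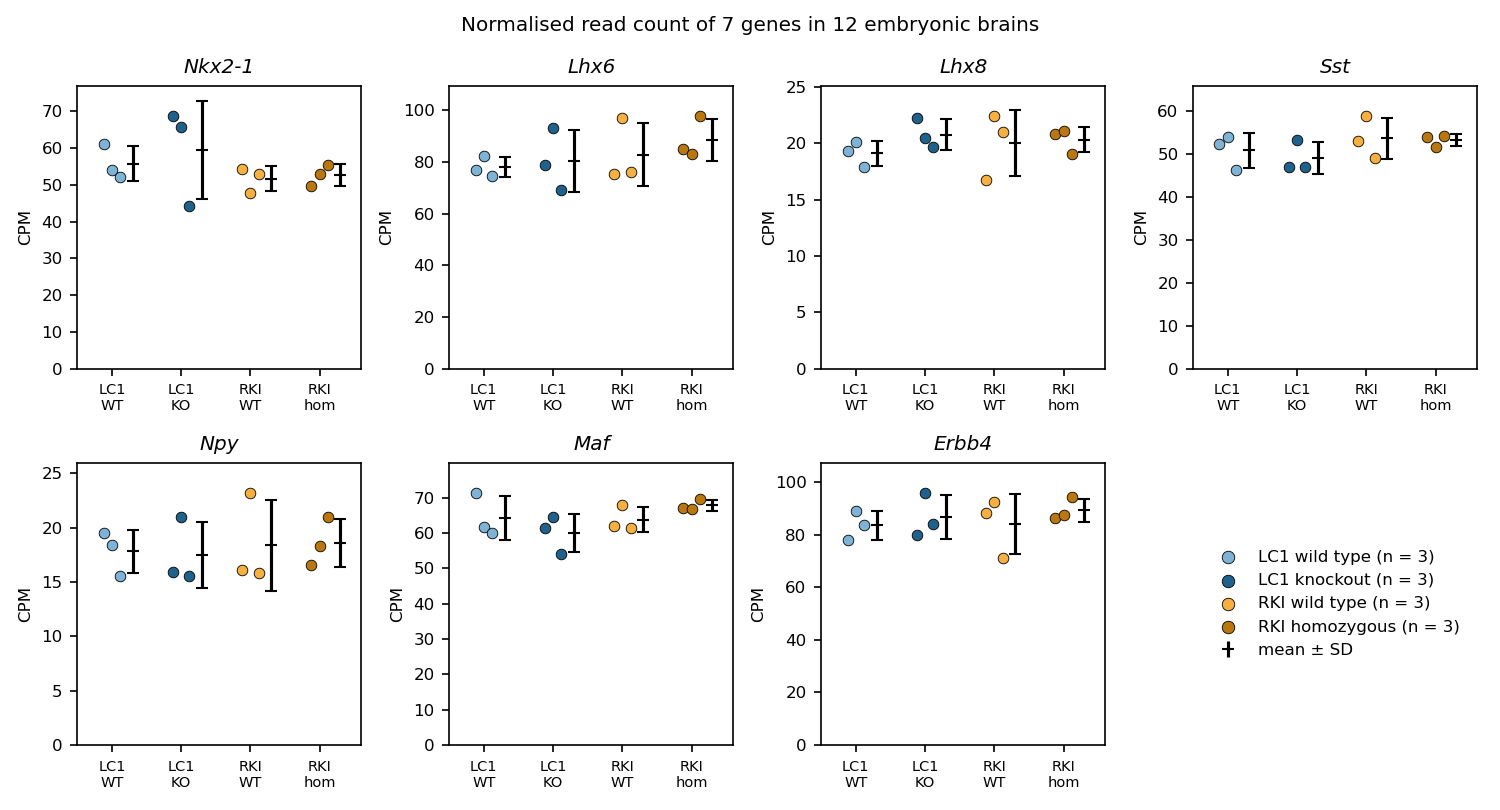
Normalised read count (CPM, vertical axis from 0) of each gene in the 4 groups of 3 embryos, 1 point per embryo, with the group mean and SD as a bar beside the points. The groups overlap for every gene, and Nkx2-1 spreads most within the LC1 knockouts, from 44.2 to 68.7 CPM.

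None of the 7 genes passed a test of difference between genotypes in either experiment. By edgeR's quasi-likelihood test with Benjamini-Hochberg adjustment, 0 of 7 passed an adjusted p of 0.05 in LC1, where 0% of the 16002 genes passed, and 0 of 7 in RKI, where 0% passed. At an unadjusted p under 0.05 the count was again 0 of 7 in each, against 2.09% of all genes in LC1 and 1.92% in RKI. DESeq2 also called 0 genes in either experiment, and at an unadjusted p under 0.05 it gave 183 and 177 genes. Groups did not overlap for 0 of 7 members in either experiment, against 7.16% and 5.67% of all genes. Exact permutation p-values of single genes ran from 0.2 to 1 in LC1 and from 0.3 to 1 in RKI, where 3 embryos against 3 cannot go below 0.1.

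A test that misses its threshold does not show equal levels, so the 95% confidence intervals of the fold changes set the bounds. Over the 7 genes these reached from 0.800-fold to 1.30-fold in LC1 and from 0.838-fold to 1.27-fold in RKI. Members were higher in the mutant for 4 of 7 in LC1 (48.6% of all genes) and for 6 of 7 in RKI (50.6%; 4 of 7 without A16), with median log2 fold changes of 0.05 and 0.04. The authors' deposited table gave the same sign for all 7 genes in both experiments, with adjusted p from 0.937 to 0.997.

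The wild types of the 2 lines were compared to see the background between them. Of all genes, 2 passed the edgeR threshold (0.0125%), and 0 of 7 members did. At an unadjusted p under 0.05 the count was 0 of 7 against 3.89% of genes, and the groups overlapped for all 7, against 7.59% of genes without overlap. Of the 7 log2 fold changes, 6 were positive (47.9% of all genes), from 0.02 for Maf to 0.21 (SE 0.169) for Npy, and Nkx2-1 was at -0.16 (SE 0.16). LC1 embryos are all female and A9 is the only female RKI wild type, so with sex in the model this contrast leans on A9. Without A9, the values turned to -0.18 for Lhx6, -0.06 for Sst, -0.19 for Npy, -0.09 for Maf and -0.11 for Erbb4. The effects in the 2 experiments differed for 0 of 7 genes, where 0% of all genes passed, and for 0 of 7 at an unadjusted p under 0.05, against 2.42%.

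**Figure D2:**
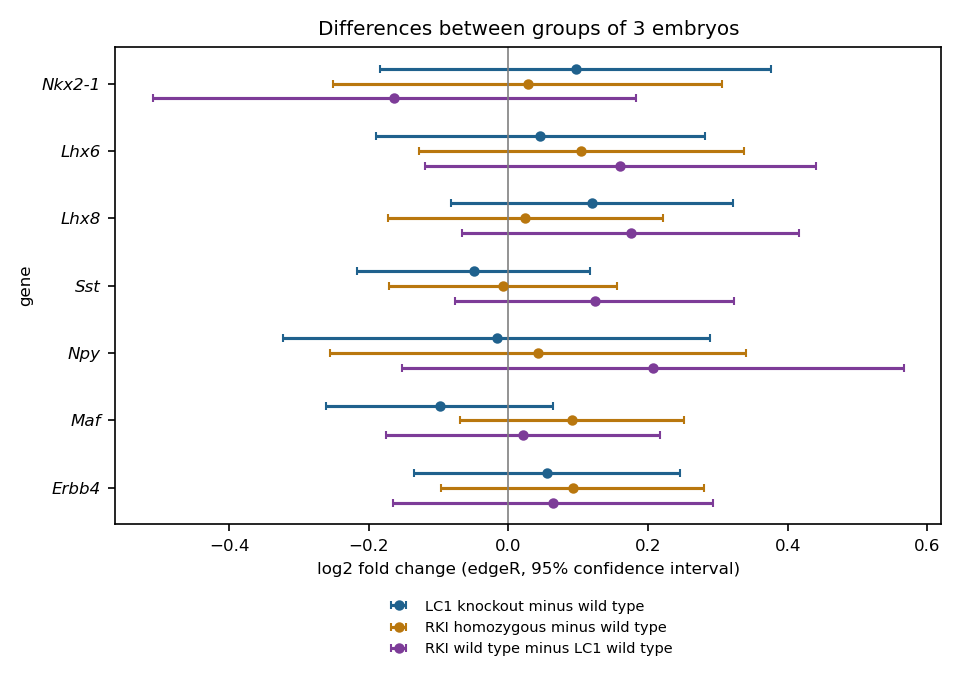
Log2 fold changes (horizontal axis) with 95% confidence intervals from edgeR for the 7 genes in 3 comparisons of 3 embryos against 3. Every interval includes 0, and the widest belong to Npy and Nkx2-1 between the wild types of the lines.

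Although genotype groups did not part these genes, single embryos did. The coefficient of variation over 12 embryos was 14.3% for Npy, 12.9% for Nkx2-1 and 11.2% for Lhx6, where counting error alone would give 5.13%, 2.93% and 2.40%. The median over 5544 genes with counts in the same range was 6.41%, and 1.79%, 3.17% and 7.09% of those genes varied more than Npy, Nkx2-1 and Lhx6. Erbb4, Lhx8, Maf and Sst varied less, at 8.30%, 8.23%, 7.51% and 7.25%. Embryo 22, a knockout, was above the median of 12 for all 7 genes. Embryos 71, a knockout, and 73, a wild type, were below it for all 7. A9 and A18 were above it for 6 genes each, and A16 was below it for 6. High embryos thus occurred in LC1 knockouts and in both RKI groups, and low ones in both LC1 groups and in RKI wild types.

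Lhx6, Npy and Sst, the regulator and the peptides of the somatostatin lineage, varied together across embryos. Of 21 pairs of members, 18 had a positive Pearson's r of log2 CPM, with a median of 0.31. Over all pairs of the 16002 genes the median was -0.0005 and 49.9% were positive. Of these pairs, 20.6% had an r at least as high as the members' median. Permutation p-values (100000 resamples, two-sided) adjusted over the 21 pairs were under 0.05 for 7 pairs, all among Lhx6, Npy, Sst, Maf and Erbb4. The lowest r of these was 0.675, for Lhx6 and Maf, and 2.08% of all gene pairs had an r at least as high.

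The closest pair was Lhx6 and Npy, with r = 0.854 and Spearman's rho = 0.86 over 12 embryos (permutation p = 0.00048 and 0.00058, adjusted 0.0101 and 0.00714). It was 0.722 without A18 and A9, the embryos farthest from the Lhx6 median. Within experiments r was 0.79 in the 6 LC1 embryos and 0.924 in the 6 RKI embryos (exact permutation p = 0.0556 and 0.0306). Of the 16001 other genes, Lhx6 ranked 25th by r with Npy, and Npy ranked 28th with Lhx6. Leaving out any single embryo kept the adjusted p of this pair under 0.05, with r from 0.804 to 0.921.

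Sst and Npy had r = 0.797 and rho = 0.86 (permutation p = 0.00221 and 0.00074, adjusted 0.0232 and 0.00714), with 0.914 in LC1, 0.788 in RKI and 0.753 without the 2 farthest embryos, 73 and 7. Lhx6 and Sst had r = 0.763 and rho = 0.783 (permutation p = 0.00409 and 0.00364, adjusted 0.0286 and 0.0191), with 0.694 in LC1, 0.76 in RKI and 0.646 without the 2 farthest, A18 and A9. Sst and Npy missed the threshold without 71 (a knockout) or without A9, and Lhx6 and Sst missed it without 73, 71 or A9. Their r stayed between 0.678 and 0.863 with any 1 embryo left out.

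The other 4 pairs that passed were weaker. Maf had r of 0.689 with Npy, 0.679 with Sst and 0.675 with Lhx6, and Lhx6 had 0.679 with Erbb4, each at an adjusted permutation p of 0.0453. Their rho were 0.846, 0.699, 0.727 and 0.678 (adjusted permutation p of 0.00714, 0.0415, 0.034 and 0.0415). For each of these 4 pairs the adjusted p rose above the threshold with any of 11 of the 12 embryos left out. The exceptions were A1 for Npy and Maf, A16 for Lhx6 and Erbb4, and 6 for the other pairs. Erbb4 and Maf themselves had r = 0.232, at -0.155 in LC1 and 0.741 in RKI.

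**Figure D3:**
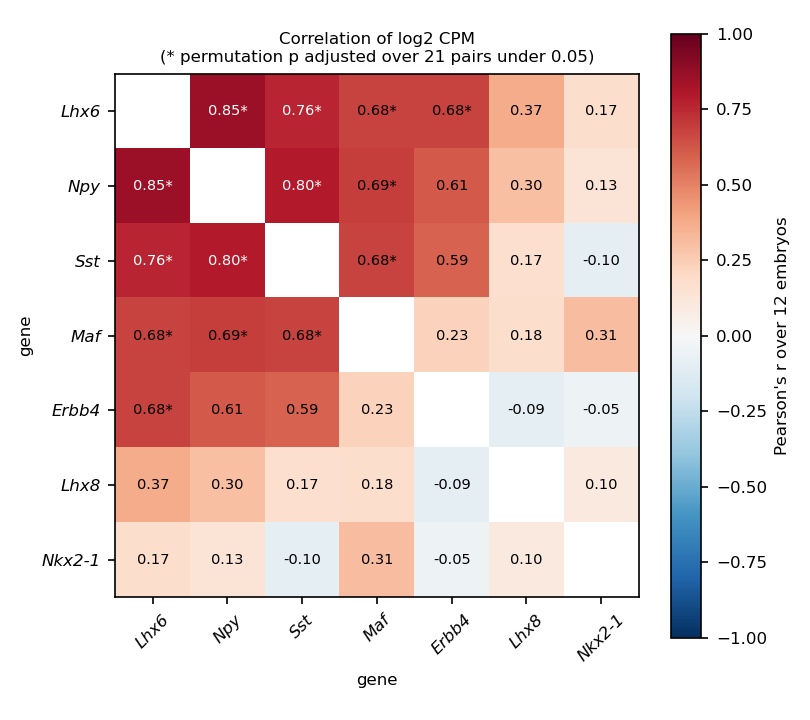
Pearson's r of log2 CPM over 12 embryos for each pair of the 7 genes, as colour and number, with an asterisk where the permutation p adjusted over 21 pairs is under 0.05. Lhx6, Npy, Sst and Maf form the block of high values, and the rows of Lhx8 and Nkx2-1 reach 0.37 at most.

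Nkx2-1, which lies upstream of Lhx6 in the lineage, did not follow this pattern. Its r with the other 6 members ran from -0.10 to 0.31, with no adjusted p under 0.597. Its sign depended on the experiment: all 6 values were positive in LC1 (0.03 to 0.70) and all 6 negative in RKI (-0.70 to -0.10). With Lhx6 it had 0.704 in LC1 and -0.32 in RKI (exact permutation p = 0.0972 and 0.514), a difference that was not tested. Lhx8 likewise passed with no member, with r from -0.09 to 0.37, highest with Lhx6. Nkx2-1 and Lhx8 had 0.586 in LC1 and -0.698 in RKI. After group means and sex were removed, the r of Nkx2-1 was 0.723 with Maf, 0.419 with Lhx6 and 0.337 with Npy. With the others it was then -0.014 to 0.196. Without embryos 7 and 22, farthest from its median, Nkx2-1 had 0.606 with Maf and -0.335 to 0.199 with the others. These values were not tested.

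**Figure D4:**
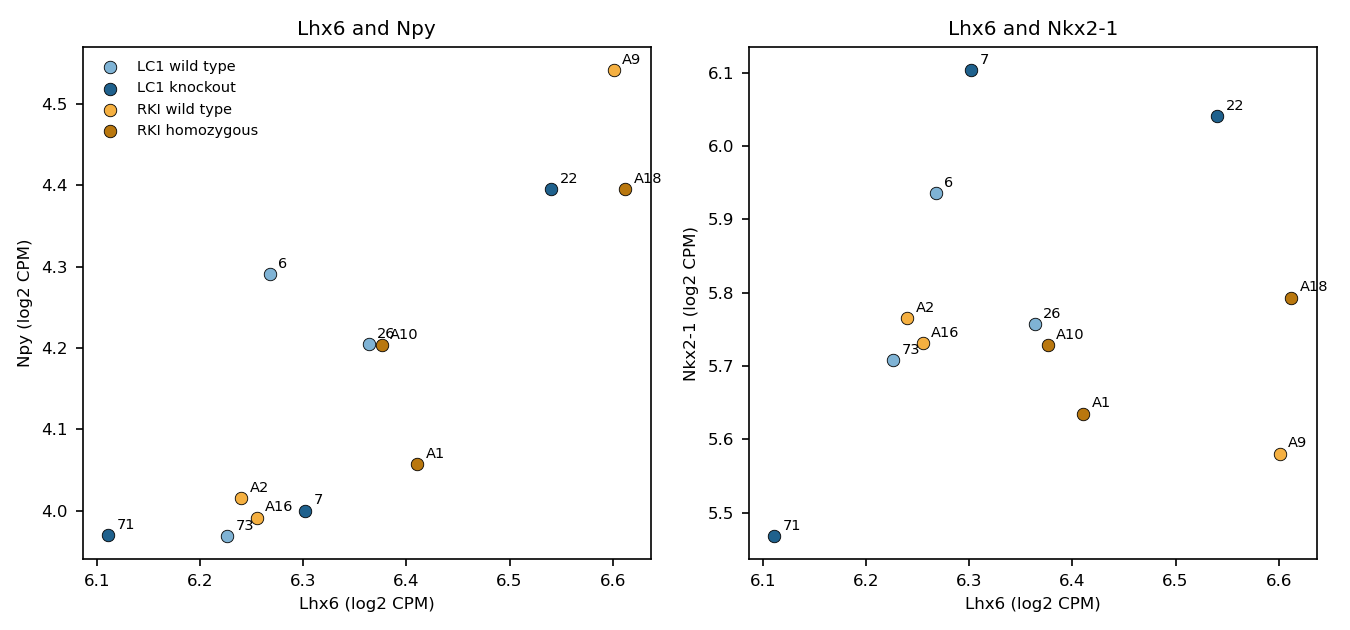
Log2 CPM of Lhx6 (horizontal axis) against Npy and against Nkx2-1 (vertical axes) in 12 embryos, coloured by group and labelled with the embryo number. Embryos 22, A9 and A18 are high for both Lhx6 and Npy, whereas A9 is among the lowest for Nkx2-1.

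Sequencing depth moved with the same genes. The r of log2 CPM with log2 of the library total was 0.65 for Lhx6, 0.604 for Sst, 0.502 for Maf, 0.496 for Npy and 0.492 for Erbb4 (permutation p of 0.025, 0.0411, 0.0943, 0.102 and 0.104). It was 0.10 for Nkx2-1 and -0.188 for Lhx8. With the library total held constant, the partial r was 0.805 for Lhx6 and Npy, 0.718 for Sst and Npy and 0.612 for Lhx6 and Sst. For the other 4 called pairs it fell to 0.586 for Npy and Maf, 0.546 for Sst and Maf, 0.543 for Lhx6 and Erbb4 and 0.531 for Lhx6 and Maf. The 3 deepest libraries, A18, 22 and A2, ranked 1st, 3rd and 10th of 12 for Lhx6. The part of depth in the covariation was not tested. After group means and sex were removed, r was 0.896 for Lhx6 and Npy, 0.845 for Sst and Npy and 0.77 for Lhx6 and Sst. Without A16 they were 0.847, 0.786 and 0.752, each still under an adjusted permutation p of 0.05.

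The genes whose log2 CPM over 12 embryos was most like that of a member were taken from all 16001 others. For Lhx6 they were Gucy1a3 (0.92), a subunit of soluble guanylate cyclase, Lrrn2 (0.91), Slc32a1 (0.91), the vesicular GABA transporter, Slain1 (0.91) and Gm20712 (0.90). For Npy they were Srm (0.96), which makes spermidine, Bpnt1 (0.92), Elmo1 (0.90), Dlx6 (0.90), a homeobox gene of inhibitory neurons, and Foxp1 (0.89), a factor of striatal neurons. For Sst they were Dgkg (0.94), Pak7 (0.93), Kctd12 (0.92), Gpd1l (0.92) and Sla (0.92).

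For Erbb4 the nearest genes included Phf24 (0.95), Kcnc1 (0.94), a potassium channel of fast-firing neurons, Neb (0.94) and Anks1b (0.93). For Maf they were Cd84 (0.97), a receptor of leukocytes, Slc6a13 (0.95), a GABA transporter of the meninges, Tpst1 (0.93), Fxyd5 (0.91) and Plcl2 (0.90). The r of Maf with the score of the macrophage list, the mean log2 CPM of its genes, was 0.62 (rho 0.608, permutation p = 0.0339, adjusted over 49 relations 0.128), with 0.684 in LC1 and 0.427 in RKI. With the score of the lens and eye list Maf had r = 0.896 and rho = 0.776 (permutation p = 0.00016 and 0.00421, adjusted over 98 relations 0.00784 and 0.0458), its highest of 14 lists. That r was 0.943 in LC1 and 0.867 in RKI (exact permutation p = 0.0208 and 0.0347), 0.692 without embryos 71 and 6, and 0.797 to 0.94 with any 1 embryo left out. Single genes of this list had r with Maf from 0.07 for Bfsp1 to 0.56 for Mip. For Nkx2-1 the nearest were Zfp467 (0.86), Carhsp1 (0.86), Pon3 (0.84), Cdk13 (0.84) and Nek11 (0.84), and for Lhx8 they were Rbm11 (0.83), Rgs19 (0.81), Cant1 (0.80), Eps8l2 (0.80) and Bysl (0.78). The values of nearest genes have no test, since each is the highest of many. Some of these genes were read at low levels. The mean log2 CPM was 1.56 for Pon3, 1.52 for Gm20712, 0.99 for Nek11, 0.98 for Rbm11, 0.53 for Cd84 and -0.73 for Eps8l2.

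The members were set beside scores of 7 lists, 49 relations in all, and then of all 14 lists. A list with 19 measured genes of the caudal and lateral ganglionic eminences, the neighbouring sources of interneurons and striatal neurons, followed Lhx6 and Npy closely, with r of 0.885 and 0.881 and rho of 0.825 and 0.937 (permutation p of r 0.00033 and 6e-05, adjusted 0.00808 and 0.00294). It followed Erbb4 with r = 0.782 and rho = 0.748 (permutation p of r 0.0022, adjusted 0.0359). The Lhx6 and Npy relations held within LC1 (0.951 and 0.897) and RKI (0.891 and 0.876), and Erbb4 had 0.602 and 0.928. Without the 2 embryos farthest on the list, 22 and A16, r was 0.929, 0.893 and 0.601 for Lhx6, Npy and Erbb4, and without A16 alone it was 0.915, 0.885 and 0.711. By the adjusted permutation p of r, 6 of all 98 relations passed. They were these 3, Maf with the lens and eye list, and Sst and Erbb4 with a list each. Sst went with the later interneuron list (r = 0.778, rho = 0.832, permutation p of r 0.00287, adjusted 0.0469, with 0.836 in LC1, 0.466 in RKI and 0.742 without 73 and A18). Erbb4 went with the peptide-processing and receptor list (r = 0.816, rho = 0.804, permutation p of r 0.00144, adjusted 0.0353, with 0.705 in LC1, 0.9 in RKI and 0.725 without A16 and A9). The adjusted permutation p of rho was 0.0458 for Lhx6 with a list of 25 medial eminence genes. It was also 0.0458 for Maf and Sst with the caudal and lateral list and Sst with the peptide list. Erbb4 with the caudal and lateral list had 0.0554. The midbrain and hindbrain list had r of -0.218 (Sst) to 0.339 (Erbb4) with the members, the smallest adjusted permutation p of r being 0.573. Without A16 its r ran from -0.644 (Sst) to 0.020 (Lhx8), with Erbb4 at -0.460, which was not tested. Its r with Nkx2-1 was -0.928 in LC1 and -0.261 in RKI (exact permutation p = 0.00833 and 0.61). The neuron and progenitor list had r of -0.768, -0.654, -0.631 and -0.598 with Erbb4, Npy, Sst and Lhx6 (adjusted permutation p 0.0634 to 0.157). Its r with the others was -0.422 to 5.7e-05.

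Nkx2-1 had its highest r, 0.732, with a list of 17 hypothalamic genes (permutation p = 0.00788, adjusted 0.0552). The rho was 0.524. Without embryos 7 and 6, the farthest on the list, r was 0.463, and with any 1 embryo left out it was 0.582 to 0.781. It was 0.834 in LC1 and -0.365 in RKI. With the medial eminence list Nkx2-1 had r = 0.643 and rho = 0.559 (permutation p of r 0.0233, adjusted 0.104), with 0.591 without 22 and A18. That r was 0.88 in LC1 and 0.080 in RKI (exact permutation p = 0.0236 and 0.867). Lhx6 had r = 0.751 with this list (permutation p = 0.00598, adjusted 0.0536), 0.839 in LC1 and 0.898 in RKI. The other members had 0.348 to 0.647. The medial eminence and hypothalamic lists share Nkx2-4, which had r = 0.692 with Nkx2-1. Prox1 is likewise in both the lens and eye list and the caudal and lateral list. Embryo 7 had both the highest Nkx2-1 and the highest summed hypothalamic markers, 262 CPM against 193 to 227 CPM in the others. The part of the hypothalamus in the Nkx2-1 values was not tested.

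No gene of the 14 lists set beside the members passed the threshold in any comparison. Of 25 genes of the medial eminence programme, 19 were higher in LC1 knockouts (median 0.10) and 16 in RKI homozygotes (median 0.06). The GABA-synthesis genes Gad1 and Gad2 were at 0.10 and 0.11 in LC1 and at 0.16 and 0.17 in RKI, none past the threshold.

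Of 7 neuregulin and ERBB genes, which hold the ligands and partners of ERBB4, 5 were higher in each experiment (medians 0.06 and 0.09). Of 11 measured peptide-processing and receptor genes, 4 were higher in LC1 and 6 in RKI. The somatostatin receptor Sstr1 had 0.42 (SE 0.147, edgeR adjusted p = 1) between the wild types of the lines. Of 8 cholinergic genes, 4 and 6 were higher, and of 19 caudal and lateral eminence genes, 11 and 12. Of 6 genes of later interneurons, 4 and 3 were higher, and of 10 guidance genes, 8 and 5. Among region and cell type markers, genes higher in LC1 and RKI mutants numbered 8 and 3 of 10 for telencephalon, 10 and 9 of 17 for hypothalamus, and 1 and 8 of 10 for midbrain and hindbrain (median 0.44 in RKI, and 7 of 10 with a median of 0.39 without A16). They numbered 0 and 7 of 12 for macrophages, 2 and 5 of 7 for lens and eye, 1 and 1 of 4 for thyroid and lung, and 6 and 5 of 10 for neurons and progenitors. Without A16, the RKI counts moved most for guidance (2 of 10), neuregulin and ERBB genes (3 of 7), lens and eye (3 of 7), peptide processing and receptors (4 of 11) and neurons and progenitors (8 of 10).

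The sequences upstream of 4 of these genes are given as a description, and their part in the covariation was not tested. The 250 bases before 1 RefSeq start of each gene are given 5′ to 3′ on the gene's strand, in build GRCm38.p6, with matches to 5 searched motifs in capitals. Lhx6 has other RefSeq starts, which are not shown. The Nkx2-1 window lies before the start of Nkx2-1-002, which held a median of 24.2% of the Nkx2-1 transcript estimates. Sst, Npy and Lhx6 are the closest trio by correlation. Nkx2-1 had no pair past the threshold, and neither had Lhx8, whose window is not shown.
Sst, chr16:23890845-23891094, minus: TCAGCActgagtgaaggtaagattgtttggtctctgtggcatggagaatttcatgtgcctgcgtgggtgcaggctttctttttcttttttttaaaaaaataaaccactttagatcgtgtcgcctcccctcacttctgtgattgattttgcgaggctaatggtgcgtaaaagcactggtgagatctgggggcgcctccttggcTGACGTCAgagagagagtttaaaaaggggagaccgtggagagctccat
Npy, chr6:49822460-49822709, plus: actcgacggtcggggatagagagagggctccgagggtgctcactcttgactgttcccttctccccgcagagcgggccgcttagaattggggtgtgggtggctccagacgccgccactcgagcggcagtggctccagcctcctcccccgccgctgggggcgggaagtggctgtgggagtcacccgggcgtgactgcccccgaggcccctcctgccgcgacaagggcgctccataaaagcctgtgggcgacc
Lhx6, chr2:36105409-36105658, minus: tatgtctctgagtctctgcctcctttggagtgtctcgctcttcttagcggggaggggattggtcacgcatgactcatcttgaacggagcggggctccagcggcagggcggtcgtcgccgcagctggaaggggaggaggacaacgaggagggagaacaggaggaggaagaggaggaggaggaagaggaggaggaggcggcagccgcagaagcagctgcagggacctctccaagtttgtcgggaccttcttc
Nkx2-1, chr12:56536909-56537158, minus: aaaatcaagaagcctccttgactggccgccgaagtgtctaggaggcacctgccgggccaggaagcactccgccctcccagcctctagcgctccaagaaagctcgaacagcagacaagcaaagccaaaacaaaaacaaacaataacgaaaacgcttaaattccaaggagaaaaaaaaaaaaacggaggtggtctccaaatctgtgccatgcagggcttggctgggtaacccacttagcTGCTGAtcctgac

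The Sst window holds the full cAMP response element TGACGTCA at -48 from the start, which 1.79% of 32851 RefSeq promoter windows contain on either strand. It also holds TCAGCA, the reverse complement of the Maf recognition core TGCTGA, at -250, and Nkx2-1 holds TGCTGA at -13. That core is in 19.5% of windows. The NK2 homeodomain motif TCAAGTG (3.06% of windows), the homeodomain core TAATTA (5.29%) and the POU octamer ATGCAAAT (1.74%) had no match in any of the 8 windows of 6 members, each 250 bases before and 50 after a start. None of the 3 matches overlapped another. A match is a description of letters and not a bound site, and the Npy and Lhx6 windows held none of the 5. Maf had no entry in the promoter table.

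Below the gene level, Erbb4 has transcripts that differ in exons with known functions. One alternative exon lies in the cytoplasmic tail and is present in the form called CYT-1, which can bind phosphoinositide 3-kinase, and absent from CYT-2. The other lies next to the membrane and decides whether the receptor can be cleaved. In the sequences, taken from GENCODE M21 transcripts, capitals mark the alternative exon and lower case the 18 bases on each side.
Erbb4-002, chr1:68043908-68043955: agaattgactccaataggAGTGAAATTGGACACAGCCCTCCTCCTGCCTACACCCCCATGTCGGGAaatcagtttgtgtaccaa
Erbb4-001, exon absent: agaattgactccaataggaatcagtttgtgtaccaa
Erbb4-001 and Erbb4-002, chr1:68290243-68290317: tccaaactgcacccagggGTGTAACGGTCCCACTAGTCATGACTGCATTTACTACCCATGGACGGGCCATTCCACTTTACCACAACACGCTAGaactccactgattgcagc
Erbb4-004, chr1:68290439-68290483: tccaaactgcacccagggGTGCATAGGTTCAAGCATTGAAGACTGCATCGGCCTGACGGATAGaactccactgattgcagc

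The first exon has 48 bases, or 16 codons, and the juxtamembrane exons have 75 and 45 bases. Of the estimated transcript counts of Erbb4, a median of 50.1% went to Erbb4-001, 27.2% to Erbb4-002 and 23.3% to Erbb4-004, a shorter model. Per transcript length (RPKM) the order turned, with median shares of 61.4% for Erbb4-004, 25.8% for Erbb4-001 and 12.9% for Erbb4-002. The percentage of the full-length forms that had the 48-base exon was 52.1, 22.6 and 27.1 in LC1 wild types 6, 26 and 73 and 44.1, 38.7 and 29.4 in knockouts 7, 22 and 71. It was 39.1, 21.7 and 32.8 in RKI wild types A2, A9 and A16 and 38.5, 33.7 and 37.2 in homozygotes A1, A10 and A18. Wild-type embryos thus held both the highest value, in 6, and the lowest, in A9, and the groups overlapped. Erbb4-002 had log2 fold changes of 0.20 (SE 0.295) in LC1 and 0.35 (SE 0.295) in RKI, with edgeR adjusted p of 1. These estimates divide reads among overlapping models, and their error is not in the test.

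Lhx6 had 9 listed transcripts, of which Lhx6-002 and Lhx6-007 were at 0 estimated counts in all 12 embryos. Of the estimated counts, Lhx6-003 took the largest median share, 38.0%, followed by Lhx6-008 (22.0%), Lhx6-201 (20.96%) and Lhx6-001 (14.7%). Per length (RPKM) the short Lhx6-008 came first, with 51.1%, and Lhx6-003 had 21.7%. The share of Lhx6-003 was 25.3%, 24.9% and 37.6% in RKI wild types A2, A9 and A16 and 46.5%, 39.0% and 38.4% in homozygotes A1, A10 and A18. These groups do not overlap, by the gap between A16 and A18. The shares of the Nkx2-1 transcripts also did not overlap in LC1, as given below. How often the groups do not overlap over all transcripts was not computed. The 5.67% of genes without overlap in RKI is for gene levels and not for transcript shares. The log2 fold change of Lhx6-003, 0.60 (SE 0.211), had an edgeR p of 0.0193 unadjusted and 1 adjusted over 47772 transcripts. In LC1 its share was 28.7%, 35.9% and 40.4% in wild types and 36.03%, 43.2% and 41.6% in knockouts, which overlap.

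Nkx2-1-001, whose annotated start lies downstream of that of Nkx2-1-002, held a median of 75.8% of the Nkx2-1 estimates, and the longer Nkx2-1-002 24.2%. The share of Nkx2-1-002 was 22.5%, 22.5% and 23.0% in LC1 wild types 6, 26 and 73. It was 29.9%, 25.6% and 23.4% in knockouts 7, 22 and 71, so these groups do not overlap, by the gap between 73 and 71. Its log2 fold change in LC1 was 0.30 (SE 0.225), with an edgeR p of 0.215 unadjusted. In RKI its share was 30.7%, 24.7% and 24.8% in wild types and 26.7%, 23.7% and 22.4% in homozygotes, which overlap. Maf-002, a single-exon form, held 63.3%, and the spliced Maf-001 36.7%, but per length (RPKM) Maf-001 held 53.5% and Maf-002 46.5%. Maf-002 had a log2 fold change of -0.21 (SE 0.101) in LC1, with an edgeR p of 0.0662 unadjusted and 1 adjusted. Of the 21 listed transcripts of the members, 17 were tested and 0 passed in any comparison, where 0%, 0%, 0.00209% and 0% of all transcripts passed for LC1, RKI, the lines and the difference of effects. At an unadjusted p under 0.05, 1 of 17 passed in RKI (Lhx6-003, against 2.45% of all transcripts) and 0 of 17 in LC1 (2.97%), between the lines (3.73%) and for the difference of effects (2.9%). Lhx8, Sst and Npy had 1 listed transcript each.

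**Figure D5:**
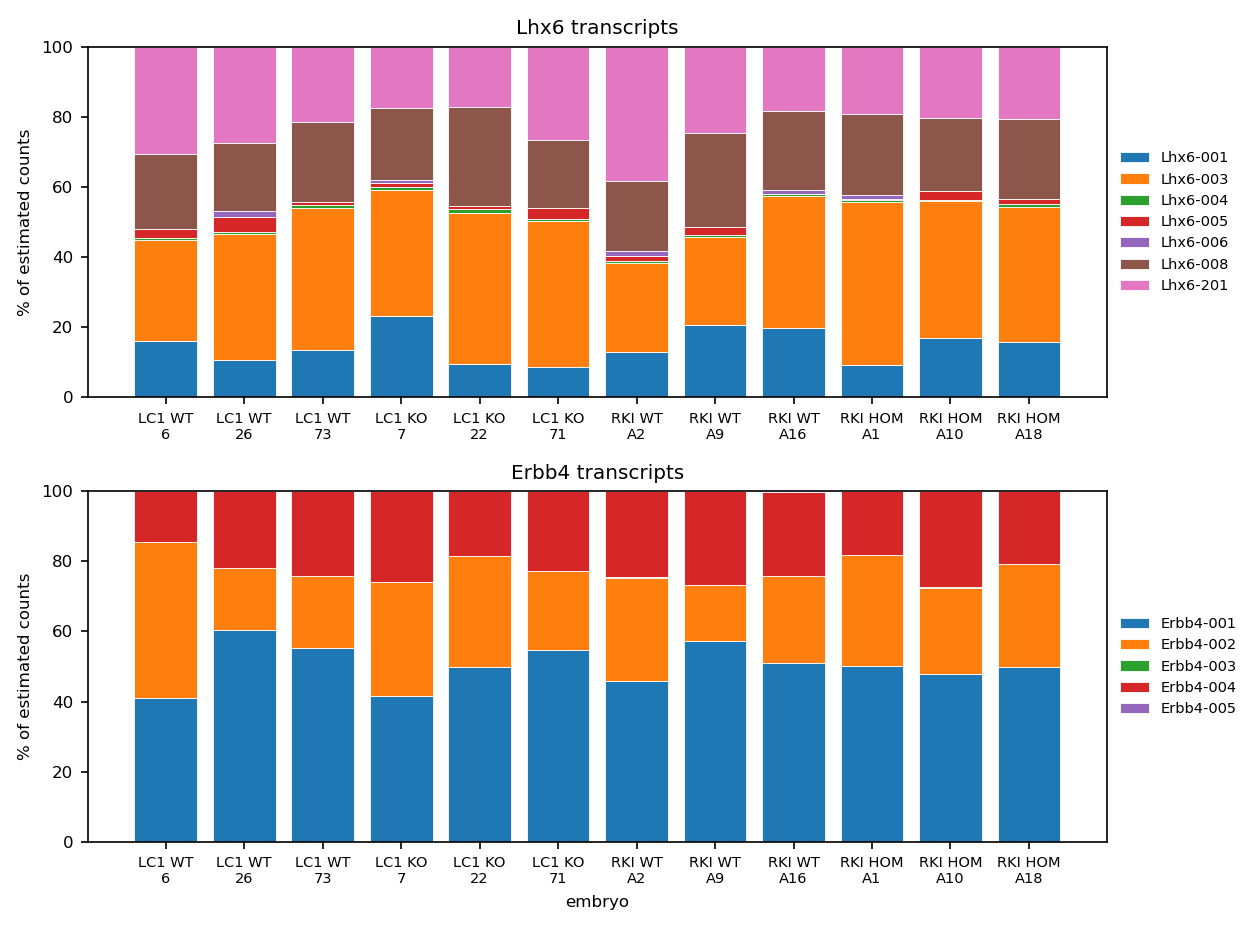
Share of the estimated transcript counts of Lhx6 (upper panel) and Erbb4 (lower panel) taken by each listed transcript, in percent, 1 bar per embryo. Lhx6-003 takes 38.4% to 46.5% in the RKI homozygotes and 24.9% to 37.6% in their wild types, and Erbb4-002 takes its largest share in LC1 wild type 6.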

How the data were processed

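Polyadenylated RNA of 12 embryonic brains was sequenced and aligned with STAR 2.0.4b and counted with featureCounts 1.4.5, per the submitters' processing notes. The genome build, annotation and strand setting are not stated there. The authors deposited raw counts per gene, estimated counts per transcript, and RPKM of both. RPKM deposited by the authors equalled counts per total and length within 0.0126%. Their deposited tables give log2 fold changes with p-values and adjusted p-values. Of 41264 gene rows, 574 repeats of an identifier were dropped. Totals of 18192984 to 26566769 counts give the members counting errors of 2.34% to 5.13%.

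Counts were fitted with edgeR 4.0.16 (R 4.3.3), with TMM scaling, filterByExpr by group, a robust quasi-likelihood test, group and sex as terms, and Benjamini-Hochberg adjustment over 16002 genes. Estimated counts were rounded and fitted likewise. The fit was tested on simulated data. DESeq2 1.42.0 was an alternative. CPM are TMM-scaled, and log2 CPM add a prior count of 2. Correlations used permutation tests (NumPy 2.4.6), which are exact at 6 embryos. Coordinates are from GENCODE M21 (GRCm38), matched by gene identifier, and the promoters from RefSeq.

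Named were all 7 members, up to 3 genes a list with the smallest p, and the 5 genes nearest each member, some of which are not reported here. The members and lists were chosen with earlier results of these data known. The p-values measure the spread between single embryos.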

Additional observations from a re-analysis of the deposited data

How the results depend on the processing

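In every alternative tried for the 4 comparisons, no member passed the threshold, the smallest edgeR or DESeq2 adjusted p being 0.551. Of 357 recomputed log2 fold changes of members, 315 kept their direction and 42 turned, as small values do. With no filter on low counts, 4, 26, 28 and 17 genes passed in LC1, RKI, the lines and the difference of effects; with neighbouring embryo numbers as a block, 3 passed in RKI and 1 for the difference. This block is a guess, since the labels match litters but do not name them and the groups share no replicate numbers. Leaving out 1 embryo gave 0 to 2 genes in RKI, 1 to 2 for the lines and 0 to 1 for the difference of effects. Without a sex term, Maf between lines was -0.013.

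With 1 embryo left out, ranges of log2 fold changes that turned in LC1 were -0.014 to 0.27 for Nkx2-1, -0.077 to 0.14 for Lhx6, -0.18 to 0.062 for Npy and -0.027 to 0.11 for Erbb4. In RKI they were -0.031 to 0.083 for Nkx2-1, -0.0018 to 0.27 for Lhx6, -0.080 to 0.10 for Lhx8, -0.062 to 0.083 for Sst, -0.12 to 0.24 for Npy and -0.016 to 0.18 for Erbb4. Between the lines they were -0.18 to 0.20 for Lhx6, -0.060 to 0.17 for Sst, -0.19 to 0.28 for Npy, -0.092 to 0.11 for Maf and -0.11 to 0.12 for Erbb4. For the difference of effects they were -0.25 to 0.042 for Nkx2-1, -0.047 to 0.22 for Lhx6, -0.015 to 0.13 for Sst, -0.10 to 0.25 for Npy and -0.073 to 0.12 for Erbb4.

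The median correlation between members, 0.31, was 0.419 after removing group means and sex, 0.496 in the 6 LC1 embryos, and 0.289 to 0.463 with 1 embryo left out. For single pairs and list scores, leaving out embryos, holding depth constant and using all 14 lists were chosen after the data were seen: 1 to 6 of the 21 pairs passed with 1 embryo left out, 1 without 71 or A9 and 6 without 6. The causes were not tested. With 3 embryos a group, fold changes inside the intervals given cannot be told from none.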

Other observations

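Markers of later interneurons were read at very different levels. Reln averaged 914 CPM, Kcnc1 79.0, Nos1 59.1 and Calb1 17.1 CPM. Pvalb, which encodes parvalbumin, had 0 counts in 8 of 12 libraries and at most 3 in any, and Vip, which encodes vasoactive intestinal peptide, had 0 in 9 and at most 1. Sst, at 46.2 to 58.8 CPM, was read in every embryo. Chat, the enzyme of acetylcholine synthesis, had at most 10 counts in a library, while Lhx8 had 356 to 536. The somatostatin receptor Sstr5 and the neuropeptide Y receptor Npy5r had at most 7 and 11 counts.

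The transcript estimates did not add up to the gene counts for every member. The listed transcript of Lhx8 held a median of 42.1% of the gene's counts, from 28.0% to 55.1%, whereas those of Sst and Npy held 145% and 144%. Those of Lhx6 summed to 97.7%, of Nkx2-1 to 93.3%, of Maf to 67.7% and of Erbb4 to 59.1%. The cause was not tested.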
